A study of Mus musculus with 8 samples.

Results

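The genes described here encode the enzymes of the tricarboxylic acid (TCA) cycle and of the entry of pyruvate into it, and they were followed in inguinal white adipose tissue (ING WAT), a subcutaneous depot of the mouse. They were chosen by name, as 33 gene symbols, with earlier results of these data known. All 33 were found and passed the filter of a mean of at least 1 FPKM, among 16104 genes that passed it and 38373 genes listed. They comprise 12 genes of the mitochondrial cycle, 4 isoenzymes outside it or beside it, 4 subunits of pyruvate dehydrogenase (PDH), 4 PDH kinases, 3 genes of the PDH phosphatase, 3 genes of pyruvate transport and carboxylation, and 3 genes that link the cycle to amino acids. Mitochondrial aconitase was not analysed here, and succinate dehydrogenase is described among the related genes.

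Poly(A)+ RNA was sequenced from ING WAT of C57BL/6j mice, mice m1, m49, m138 and m145 at postnatal day (PN) 21 and mice m35, m106, m114 and m125 at PN98, so 4 of each age. The question put to these libraries is how expression of mitochondrial genes in the depot differs between weaning and young adulthood. The labels give age, strain and tissue and name no transgene or agent, and the 2 groups share all but age in them. In the study the PN98 mice were fed either AIN93M or a western style diet (WSD) from PN42, and the diet of the sequenced PN98 mice is not named in the sources used here. Age and whatever else differed between the litters, sequencing runs or diets cannot be told apart.

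In the TCA cycle, acetyl groups are joined to oxaloacetate by citrate synthase and oxidised in a series of steps that reduce NAD and FAD for the respiratory chain. Pyruvate enters mitochondria through the mitochondrial pyruvate carrier and becomes either acetyl-CoA, through PDH, or oxaloacetate, through pyruvate carboxylase. PDH is switched off when PDH kinases phosphorylate its E1 alpha subunit and switched on again by the PDH phosphatase. In adipose tissue the cycle feeds respiration, which is intense in thermogenic adipocytes, and it also exports citrate for the synthesis of fatty acids.

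Each value below is an FPKM (the number of fragments scaled to transcript length and to the mapped fragments of the library), summed over the transcripts of a gene. Differences are limma estimates on log2(FPKM + 1), given as PN98 minus PN21, with p-values adjusted by Benjamini-Hochberg across the 16104 genes. Each library carries its own mouse number, and p-values measure the spread between these mice. Depth is unknown, since FPKM carry no read counts. PN98 mouse m35 stood apart from the other PN98 mice in many of the genes described, and the main results are also given without it.

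The labelled tissue was checked against marker genes. *Adipoq*, *Lipe* and *Cidec*, genes of mature adipocytes, were among 8 adipocyte markers and rose at PN98. Summed FPKM of the 8 markers ran from 13322 to 24799 at PN21 and from 35367 to 46663 at PN98. Most of this sum was *Fabp4*, with 10641 to 20251 FPKM at PN21 and 27521 to 37466 FPKM at PN98. The ages overlapped in *Plin1* and *Retn*. Brown adipocyte markers (7 genes) summed to between 3038 and 6459 FPKM at PN21 and to 371 in m35, 1016 in m114, 2414 in m106 and 4228 in m125. Lymphocyte markers (9 genes) summed to between 359.8 and 885 FPKM at PN21 and to 812 in m35, 157 in m106, 47.2 in m114 and 15.9 in m125. Skeletal muscle markers, of which 12 were tested, summed to between 69.6 and 654 FPKM at PN21 and between 605 and 3844 FPKM at PN98, with the highest value in m106. Macrophage markers (5 genes) summed to between 387 and 653 FPKM at PN21 and between 169 and 790.2 FPKM at PN98, and epithelial markers to at most 27.2 FPKM in any mouse. *Krt14*, a basal epithelial keratin, was listed at 0 in all 4 PN98 mice. Fewer cells of a type and less RNA per cell cannot be told apart in these bulk samples. *Ddx3y*, a gene of the Y chromosome, lay between 18.1 and 25.9 FPKM and *Xist*, which is expressed from the inactive X chromosome, below 1 FPKM in all 8 mice, so that by these genes all 8 libraries came from males.

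Of the 33 genes, 1 was called lower at PN98 and 0 were called higher (adjusted p under 0.05). Among all genes tested, 2.91% were called lower and 2.34% higher, so that the share of 3.03% called lower among the 33 is near the background. By the unadjusted limma p under 0.05, 7 of the 33 were lower and 0 higher, against 19.0% and 8.18% of all genes. Of the 33 genes 26 had an estimate below 0 (78.8%), against 67.0% of all genes, and their median log2 fold change was −0.37, against −0.21 over all genes. This split depended on the scaling of the libraries: 21 estimates lay below 0 and 12 above with median of ratios scaling, and 19 and 14 with each mouse scaled to the same sum over nuclear genes. These scalings moved the median of all genes from −0.21 to −0.03 and 0.02, and that of the 33 genes from −0.37 to −0.15 and −0.09.

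**Figure D1:**
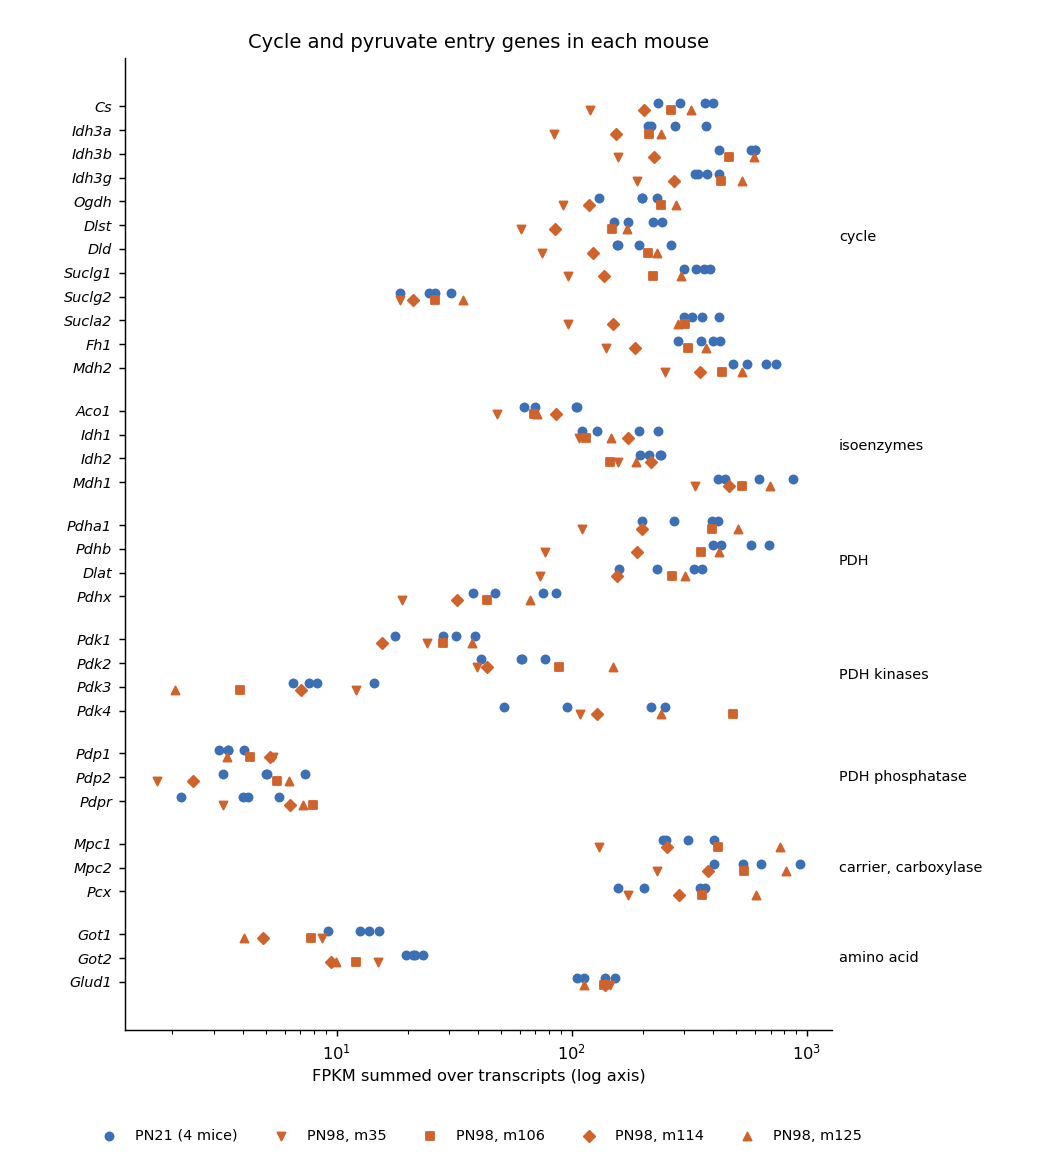
FPKM of the 33 genes in each mouse (log axis), grouped by role, with PN21 mice as circles and each PN98 mouse as its own symbol. Among the cycle and PDH genes m35 was the lowest mouse with the exception of *Suclg2*, and in *Got1*, *Got2* and *Suclg1* the ages did not overlap.

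The gene called lower was *Got2*, which encodes the mitochondrial aspartate aminotransferase and interconverts oxaloacetate and aspartate in the malate-aspartate shuttle. It lies at chr8:95864134-95888547 on the minus strand (mm10). In the order m1, m49, m138 and m145, *Got2* had 21.1, 23.2, 21.5 and 19.7 FPKM, and in the order m35, m106, m114 and m125 it had 14.9, 12.1, 9.49 and 9.91 FPKM, and all values below are given in these orders. Every PN98 mouse lay below every PN21 mouse, and the values within an age were close. The PN21 mean was 21.4 ± 1.45 and the PN98 mean 11.6 ± 2.50 FPKM (SD, n = 4 each), a log2 fold change of −0.85 (SE 0.17, limma adjusted p = 0.0320). The call was lost when any mouse other than m35 was left out (adjusted p from 0.0671 to 0.0929) and with scaling to nuclear genes (log2 fold change −0.59, adjusted p = 0.0984). Without m35 the log2 fold change was −0.97 (adjusted p = 0.00981), in a fit that called 17.8% of all genes lower, against 2.91% with all mice.

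*Got1* encodes the cytosolic partner enzyme of the same shuttle. It had 12.6, 15.1, 13.7 and 9.21 FPKM at PN21, and 8.66, 7.79, 4.87 and 4.03 FPKM at PN98 in the order m35, m106, m114 and m125. The ages did not overlap, and the log2 fold change of −0.93 (SE 0.26) did not pass the threshold (limma adjusted p = 0.0784). It passed without m35, at −1.08 (adjusted p = 0.0255), in the fit that called 17.8% of all genes lower. With protein-coding transcripts only, its log2 fold change was −0.63 (adjusted p = 0.101). *Glud1*, glutamate dehydrogenase, which feeds glutamate into the cycle as 2-oxoglutarate, lay between 105 and 153 FPKM at PN21 and between 113 and 146 FPKM at PN98 (log2 fold change 0.08, SE 0.17, limma adjusted p = 0.791).

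The 12 genes of the cycle all had estimates below 0, with a median log2 fold change of −0.65, and none passed the test. With either of the other scalings 9 of the 12 stayed below 0, with medians of −0.43 (median of ratios) and −0.37 (nuclear genes). *Suclg1*, the alpha subunit shared by both succinyl-CoA ligases, had 387, 365, 299 and 338 FPKM in the PN21 mice and 96.0, 222, 137 and 292 FPKM in m35, m106, m114 and m125. The ages did not overlap, and the log2 fold change of −1.01 (SE 0.33) gave a limma adjusted p of 0.111. Together with *Got1* and *Got2* it made 3 of 33 genes (9.09%) in which the ages did not overlap, each with the PN98 mice below, against 16.1% of all genes tested (either direction).

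*Cs*, citrate synthase, the enzyme of the first step and a common marker of mitochondrial content, had 366, 399, 289 and 233 FPKM at PN21. At PN98 it had 119 FPKM in m35, 202 FPKM in m114, 264 FPKM in m106 and 320.5 FPKM in m125. The 2 ages overlapped, since m106 and m125 lay inside the range of the PN21 mice (log2 fold change −0.57, SE 0.33, limma adjusted p = 0.282). *Mdh2*, the mitochondrial malate dehydrogenase, had the highest mean FPKM of the 12 genes at both ages, with 669, 736, 484 and 554 FPKM at PN21 and 249, 436, 349 and 531 FPKM at PN98 (log2 fold change −0.68, SE 0.26, limma adjusted p = 0.150). *Fh1*, fumarase, had a mean of 365 ± 61.6 FPKM at PN21 and 253 ± 108 FPKM at PN98 (SD, n = 4 each, log2 fold change −0.62).

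The subunits of the 2 oxidative decarboxylases of the cycle differed among themselves. In isocitrate dehydrogenase 3, the catalytic subunit *Idh3a* went from a mean of 268 ± 74.6 to 173 ± 69.5 FPKM and *Idh3b* from 551 ± 86.0 to 360.0 ± 205 FPKM, with log2 fold changes of −0.70 and −0.79. The third subunit, *Idh3g*, had 368 ± 39.0 FPKM at PN21 and 355 ± 152 FPKM at PN98 (log2 fold change −0.16). In 2-oxoglutarate dehydrogenase, the E1 subunit *Ogdh* had a log2 fold change of −0.18 and the E2 subunit *Dlst* one of −0.84. *Dld*, the E3 subunit that serves both this complex and PDH, lay between them at −0.37. Limma adjusted p-values of these 6 genes ran from 0.166 for *Dlst* to 0.775 for *Ogdh*.

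The succinyl-CoA ligase pairs its alpha subunit with either a beta subunit specific for ADP (*Sucla2*) or with a beta subunit specific for GDP (*Suclg2*). *Sucla2* had a mean of 350.3 ± 52.4 FPKM at PN21 and 208 ± 101 FPKM at PN98 (SD, n = 4 each, log2 fold change −0.88, limma adjusted p = 0.169). *Suclg2* was far less abundant and had the same mean level at both ages, 25.0 ± 4.96 and 25.1 ± 6.96 FPKM. Its share of the summed beta subunits was 5.42% to 7.60% in the PN21 mice. At PN98 it was 16.2% in m35, 12.3% in m114, and 10.8% in m125, and in m106 *Sucla2* held 92.0%, so that the share of *Suclg2* was above every PN21 mouse in all 4.

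Isoenzymes of the cytosol and the NADP-dependent mitochondrial isocitrate dehydrogenase *Idh2* showed smaller differences. *Aco1*, *Idh1*, *Idh2* and *Mdh1* had log2 fold changes of −0.31, −0.25, −0.33 and −0.21, with limma adjusted p-values from 0.242 to 0.671. *Idh2* lay between 194 and 239 FPKM at PN21 and between 144.6 and 217 FPKM at PN98. Their directions depended on the scaling, since *Mdh1* turned above 0 with both other scalings and *Idh1* with scaling to nuclear genes.

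**Figure D2:**
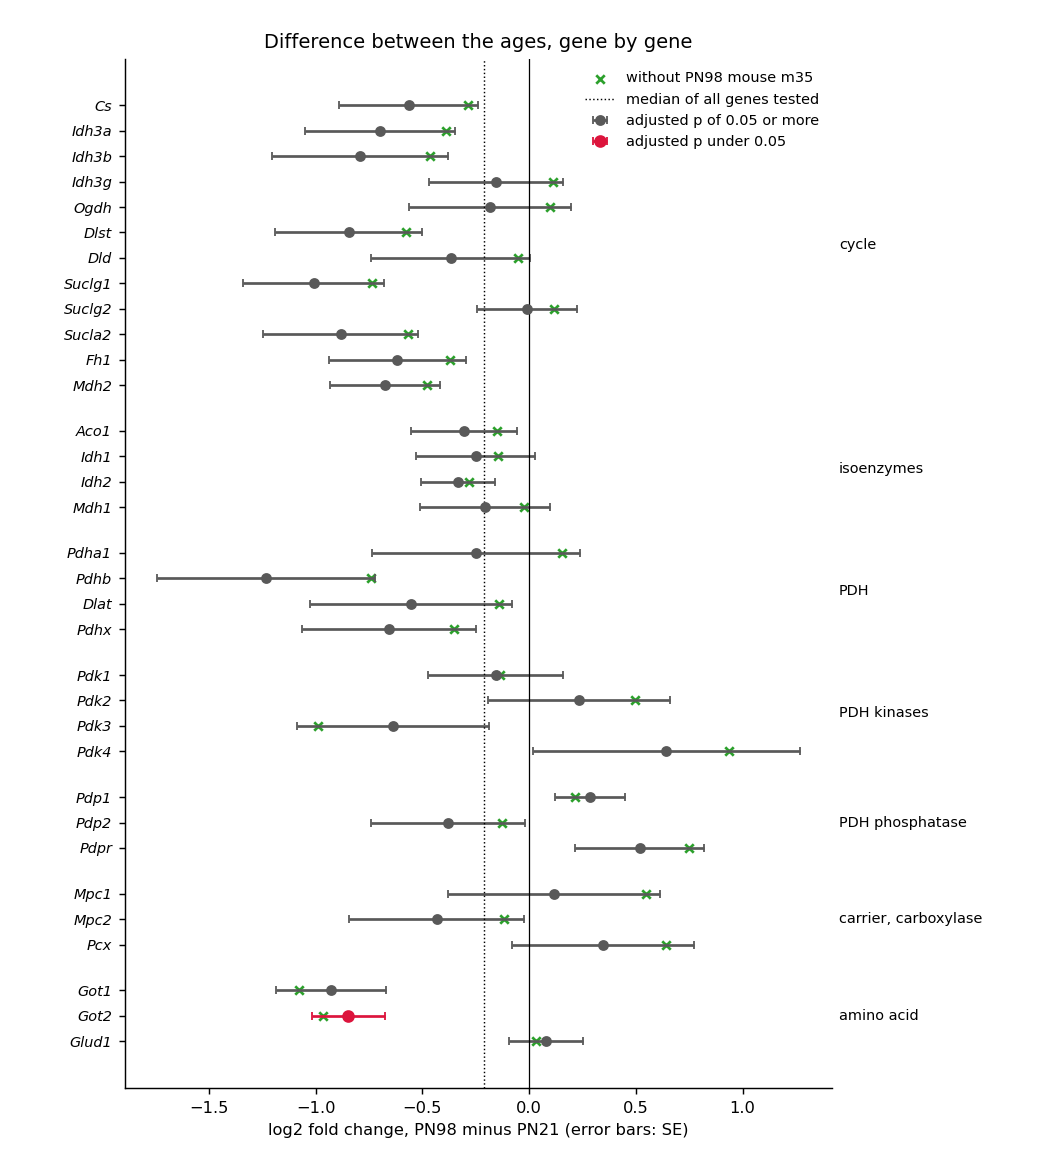
Log2 fold change of each gene (PN98 minus PN21, points, error bars are SE from limma) by role, with crosses for the fit without PN98 mouse m35 and a dotted line at the median of all genes tested, −0.21. *Got2* was the called gene, and without m35 all cycle and PDH estimates were higher.

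PDH itself did not pass the test in any of its 4 subunits. *Pdhb*, the E1 beta subunit, had 578, 686, 399 and 432 FPKM in the PN21 mice and 77.1, 356, 189.6 and 423 FPKM in m35, m106, m114 and m125. Its log2 fold change of −1.23 (SE 0.51, limma adjusted p = 0.169) was the lowest of the 33 genes, and m125 lay inside the range of the PN21 mice. *Pdha1*, the E1 alpha subunit that carries the phosphorylation sites, had 393, 417, 272 and 198 FPKM at PN21 and 110.3, 394, 199 and 507 FPKM at PN98. The ages overlapped for *Pdha1* (log2 fold change −0.25, SE 0.49, limma adjusted p = 0.757). *Dlat*, the E2 subunit, and *Pdhx*, the E3-binding protein, had log2 fold changes of −0.56 and −0.66. Without m35 the estimates were −0.74 for *Pdhb* and 0.16 for *Pdha1*, −0.14 for *Dlat* and −0.35 for *Pdhx*.

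Since *Pdha1* and *Pdhb* encode partners of 1 enzyme, their ratio was formed within each mouse, where library scaling cancels. The ratio *Pdha1* to *Pdhb* was 0.680, 0.608, 0.682 and 0.457 in the PN21 mice and 1.43, 1.11, 1.05 and 1.20 in m35, m106, m114 and m125. Every PN21 mouse had more *Pdhb* than *Pdha1* per length, and every PN98 mouse had more *Pdha1*. The mean ratio was 0.607 ± 0.105 at PN21 and 1.20 ± 0.167 at PN98 (SD, n = 4 each), a difference of 0.99 on the log2 scale. Mouse m35, in which both genes were lowest, lay with the other PN98 mice in this ratio.

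The same ratio was formed for all 14 pairs of subunits within 5 complexes, a set defined after the values of the single genes had been seen. In 9 of the 14 pairs (64.3%) the ages did not overlap, against 18.8% of all pairs that can be formed from the genes tested with values above 0 in every mouse. Pairs that share a gene are not independent of each other, and the 9 pairs rest on 12 genes. *Pdha1* was relatively higher at PN98 against each of its 3 partners, although against *Pdhx* the nearest mice of both ages, m138 and m35, had 5.79 each. *Pdhb* was relatively lower against *Dlat*, with a mean ratio of 2.04 ± 0.472 at PN21 and 1.25 ± 0.148 at PN98 (SD, n = 4 each).

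*Ogdh* to *Dlst* gave 1.05, 0.826, 1.15 and 0.867 at PN21, and 1.50, 1.62, 1.41 and 1.60 at PN98 in the order m35, m106, m114 and m125. The PN98 mice were close to each other in this ratio, although *Dlst* itself ran from 61.0 FPKM in m35 to 172 FPKM in m125. *Suclg1* to *Suclg2* had a mean of 14.3 ± 2.93 at PN21 and 7.16 ± 1.62 at PN98, a log2 difference of −1.01, and *Suclg2* to *Sucla2* a log2 difference of 0.88. *Idh3g* was relatively higher at PN98 against both of its partners, with log2 differences of −0.55 for *Idh3a* to *Idh3g* and −0.64 for *Idh3b* to *Idh3g*.

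Where the ratios rest on 1 kind of transcript, 6 of the 14 pairs did not overlap, both with protein-coding transcripts only and with the most abundant transcript of each gene. *Pdha1* to *Pdhb*, *Pdhb* to *Dlat*, *Ogdh* to *Dlst*, *Suclg1* to *Suclg2* and *Suclg2* to *Sucla2* were apart under both. *Pdha1* to *Pdhx* overlapped when restricted to protein-coding transcripts, and *Pdha1* to *Dlat* with the most abundant transcript of each gene. The pairs with *Idh3g* overlapped under both, and its protein-coding transcript held 55.6% of the gene's FPKM. Over all genes, the log2 fold change rose with transcript length, from a median of −0.43 in the fifth of genes with the shortest transcripts to −0.08 in the longest. In 6 of the 9 pairs the relatively higher gene had the longer transcript, as for *Pdha1* (2848 bases) against *Pdhb* (1513 bases). The part of transcript length in these ratios was not tested.

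**Figure D3:**
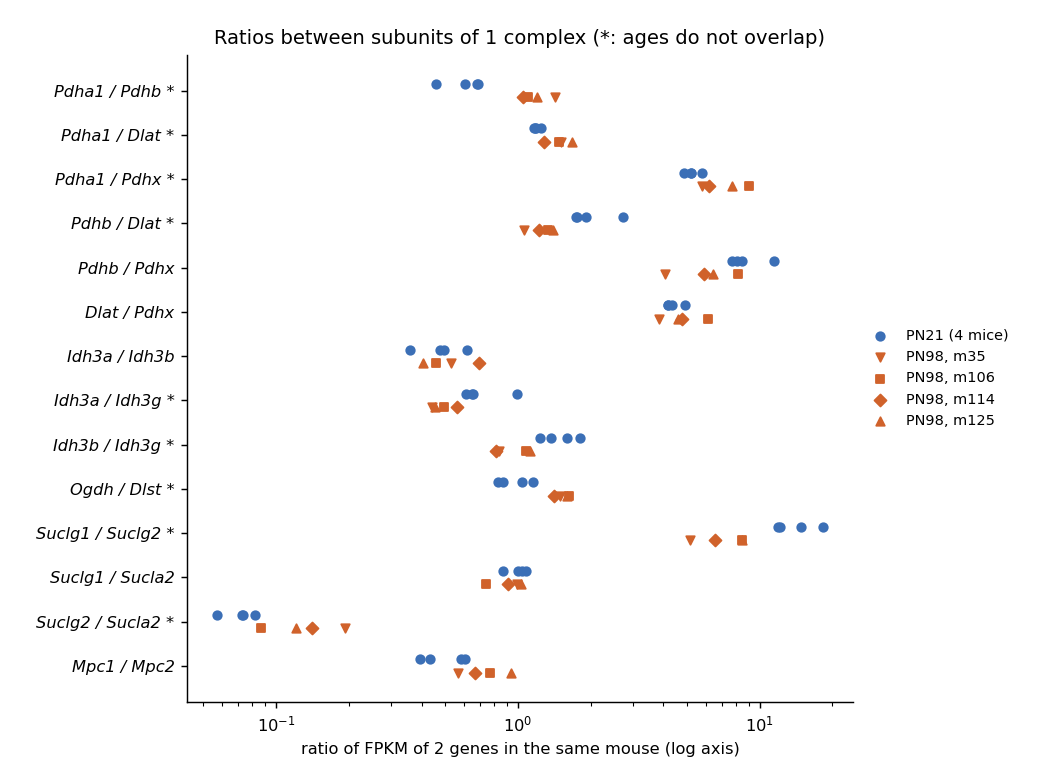
Ratio of FPKM of 2 genes of the same complex in each mouse (log axis), with PN21 mice as circles and PN98 mice as separate symbols. Pairs with an asterisk, 9 of 14, did not overlap between the ages, with *Pdha1* to *Pdhb* moving from a mean of 0.607 to 1.20.

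The promoters of the 2 E1 genes are shown because the ratio of this pair went from below 1 in every PN21 mouse to above 1 in every PN98 mouse. They run from 250 bases before to 50 bases after the start in RefSeq (GRCm38.p6), *Pdha1* at chrX:160138381-160138680 and *Pdhb* at chr14:8172943-8173242, both on the minus strand. Capitals mark matches on either strand to 3 motifs: AAGGTCA, the half-site bound by the estrogen-related receptors, GCATGCGC, the core bound by NRF1, and ATTGG, the CCAAT box read on the other strand.
Pdha1: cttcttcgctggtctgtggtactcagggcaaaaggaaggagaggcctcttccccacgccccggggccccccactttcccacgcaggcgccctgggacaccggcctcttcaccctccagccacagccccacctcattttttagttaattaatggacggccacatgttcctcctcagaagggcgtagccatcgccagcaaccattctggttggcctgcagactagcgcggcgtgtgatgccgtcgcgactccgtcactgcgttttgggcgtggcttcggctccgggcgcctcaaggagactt
Pdhb: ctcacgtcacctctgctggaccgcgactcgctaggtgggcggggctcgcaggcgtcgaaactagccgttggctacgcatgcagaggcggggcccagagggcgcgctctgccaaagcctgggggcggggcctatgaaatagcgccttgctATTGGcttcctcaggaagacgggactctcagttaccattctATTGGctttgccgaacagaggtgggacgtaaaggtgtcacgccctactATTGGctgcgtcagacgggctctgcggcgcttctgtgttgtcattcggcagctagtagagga
The *Pdhb* window held ATTGG 3 times and the *Pdha1* window held no match, and the G and C content was 61% and 62%. Of the 33 genes 31 had a promoter listed, with 41 promoters in all. ATTGG was found in 25 of these 41 promoters (61.0%) and in 37.4% of all 32851 promoters. AAGGTCA was found in 2 of the 41 (4.88%), of *Got1* and *Ogdh*, and in 4.72% of all, and GCATGCGC in 3 of the 41 (7.32%), of *Glud1* and *Ogdh*, and in 2.71% of all. A match describes the letters of the window only.

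The PDH kinases did not move together. *Pdk4*, the kinase induced by fasting in many tissues, had 250.0, 51.3, 216 and 95.7 FPKM in the PN21 mice and 108, 483, 128 and 239.6 FPKM in m35, m106, m114 and m125. The methods of the study describe a fasted state at dissection. The ages overlapped, and the log2 fold change of 0.64 had an SE of 0.63 (limma adjusted p = 0.513). *Pdk4* held the largest share of the summed kinase FPKM in 7 of 8 mice, from 56.0% to 80.1%, and 32.2% in PN21 mouse m49, where *Pdk2* held 38.3%. Mouse m106, with the highest *Pdk4*, also had the highest summed skeletal muscle markers. PN21 mouse m1, with the next highest *Pdk4*, had the lowest muscle sum of all mice, 69.6 FPKM. The part of muscle in *Pdk4* was not tested. *Pdk2* had a mean of 60.0 ± 14.7 FPKM at PN21 and 80.1 ± 51.0 FPKM at PN98 (SD, n = 4 each), with 149 FPKM in m125. *Pdk1* lay between 17.8 and 38.8 FPKM at PN21 and between 15.6 and 37.5 FPKM at PN98.

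*Pdk3* was the least abundant kinase and ran against *Pdk2* among the PN98 mice, with 12.1 FPKM in m35, 7.02 FPKM in m114, 3.88 FPKM in m106 and 2.04 FPKM in m125. At PN21 it had 6.51, 8.24, 14.4 and 7.60 FPKM (log2 fold change −0.64, SE 0.45, limma adjusted p = 0.374). Its values at PN98 had the order of the lymphocyte markers with m114 and m106 exchanged, and the part of those cells in it was not tested. Summed over the 4 kinases, expression was 251.8 ± 106.2 FPKM at PN21 and 352 ± 202 FPKM at PN98 (SD, n = 4 each).

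**Figure D4:**
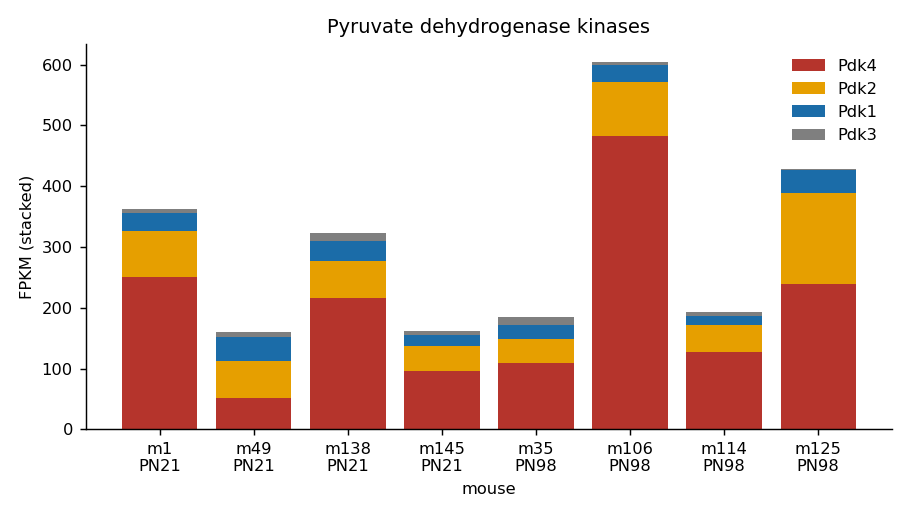
FPKM of *Pdk4*, *Pdk2*, *Pdk1* and *Pdk3* stacked for each mouse. The height differed more within an age than between the ages, from 159.5 FPKM in m49 to 362 FPKM in m1 at PN21 and from 184 FPKM in m35 to 604 FPKM in m106 at PN98.

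The phosphatase is built of a catalytic and a regulatory subunit. *Pdp1* and *Pdp2*, the catalytic subunits, had means of 3.53 ± 0.370 and 5.16 ± 1.67 FPKM at PN21 and of 4.56 ± 0.899 and 4.01 ± 2.26 FPKM at PN98 (SD, n = 4 each). *Pdp2* held 50.9% to 68.0% of the summed catalytic subunits in the PN21 mice, but 24.3% in m35 and 32.0% in m114, and 56.7% in m106 and 64.7% in m125. The regulatory subunit *Pdpr* had 3.99, 4.19, 5.69 and 2.17 FPKM at PN21 and 3.30, 7.92, 6.32 and 7.22 FPKM at PN98 (log2 fold change 0.52, SE 0.30, limma adjusted p = 0.289). Only with limma's array weights was it called higher, as were 7.13% of all genes in that fit. In *Pdp1*, 1 transcript passed the transcript filter and gave a log2 fold change of 2.42 (SE 0.84, limma adjusted p = 0.176 over all transcripts), against 0.29 for the sum over the gene. The 2 estimates are not alike, since 1 FPKM was added for the gene and nothing for the transcript. The gene had at most 5.36 FPKM in any mouse, and this transcript held 54.5% of its mean, so its values were low.

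*Mpc1* and *Mpc2* form the mitochondrial pyruvate carrier. *Mpc1* had 311, 403, 244 and 251 FPKM at PN21, and 131, 416, 254 and 764 FPKM at PN98 in the order m35, m106, m114 and m125. *Mpc2* had 535, 932, 404 and 637 FPKM at PN21 and 230.3, 541, 381 and 813 FPKM at PN98. Both overlapped between the ages, with log2 fold changes of 0.12 and −0.43 and limma adjusted p-values of 0.896 and 0.502. *Pcx*, pyruvate carboxylase, which makes oxaloacetate and supplies carbon for citrate export, had 269 ± 105 FPKM at PN21 and 356 ± 184 FPKM at PN98 (SD, n = 4 each, log2 fold change 0.35, limma adjusted p = 0.608).

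The 4 PN98 mice differed widely from each other, in an order that most of the genes shared. In 24 of the 33 genes (72.7%) m35 was the lowest PN98 mouse and m114 the next, below both m106 and m125, against 7.56% of all genes tested. This held for 12 of 12 cycle genes, 4 of 4 PDH subunits, and *Mpc1*, *Mpc2* and *Pcx*, but for 1 of the 4 isoenzymes and for 0 of the 3 amino acid genes. In 22 of the 33 genes (66.7%) m35 was the lowest of all 8 mice, against 8.12% of all genes. The genes of 1 pathway are not independent of each other, so the counts describe these mice.

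The size of this spread was large. The ratio of m125 to m35 had a median of 2.85 over the cycle genes, from 1.85 for *Suclg2* to 3.76 for *Idh3b*. It had a median of 4.38 over the PDH subunits, with 5.49 for *Pdhb*, and was 5.84 for *Mpc1*, whereas over all genes tested the median ratio was 0.679. Against the mean of the PN21 mice, the median log2 level of the cycle genes was −1.38 in m35, −0.77 in m114, −0.22 in m106 and 0.04 in m125. For the PDH subunits it was −1.68, −0.78, −0.18 and 0.21 in the same order. The amino acid genes had −0.48 in m35, −1.09 in m114, −0.61 in m106 and −1.04 in m125.

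*Ucp1*, the uncoupling protein of thermogenic adipocytes, had 7.41 FPKM in m35, 56.3 FPKM in m114, 278 FPKM in m106 and 356 FPKM in m125, and between 544 and 649.9 FPKM at PN21. *Cox7a1*, a respiratory chain subunit of brown adipocytes and muscle, had the same order, with 59.8, 113, 415 and 748 FPKM. Of the other brown adipocyte markers, *Cidea*, *Cox8b* and *Ppargc1a* shared this order, whereas *Dio2* and *Elovl3* did not. *Cidea* had 721 FPKM in m106 and 1064 FPKM in m125, above its PN21 range of 405 to 631 FPKM. *Elovl3* had 55.9 FPKM in m106 and 54.1 FPKM in m125, against at most 6.91 FPKM at PN21. In 21 of the 33 genes the 4 PN98 mice stood in exactly the order of *Ucp1*, against 5.23% of all genes tested. *Cd79a*, a B cell gene, was highest in m35 with 157 FPKM and lowest in m125 with 1.32 FPKM. The lymphocyte marker sum of m35 lay within its range at PN21, and the adipocyte marker sum of m35 above its own. Of the single lymphocyte markers, *Cd79a*, *Cd79b* and *Ms4a1* in m35 lay above every PN21 mouse. For *Cd79a* the highest PN21 value was 147 FPKM, and the other lymphocyte markers of m35 lay within their PN21 ranges. The part of thermogenic adipocytes, of lymphocytes and of diet in the spread between PN98 mice was not tested.

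**Figure D5:**
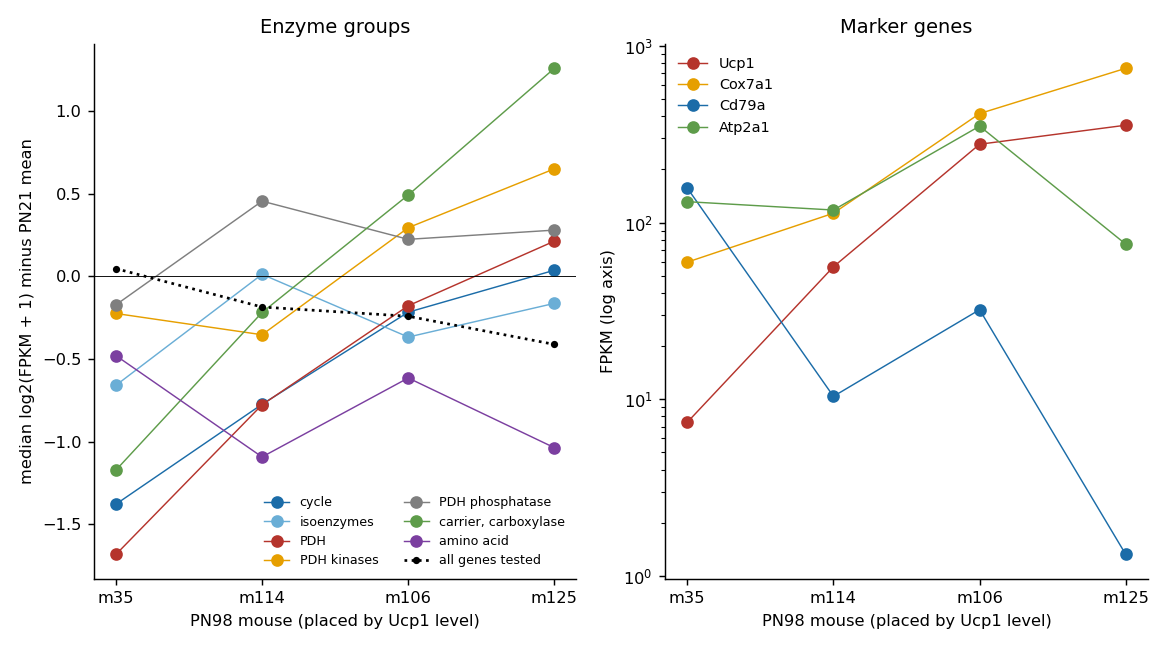
Left, median log2(FPKM + 1) of each enzyme group in the 4 PN98 mice relative to the PN21 mean, and right, FPKM of *Ucp1*, *Cox7a1*, *Cd79a* and the muscle calcium pump *Atp2a1* (log axis), with mice placed by their *Ucp1* level and lines drawn only to join symbols. The cycle genes ran from −1.38 in m35 to 0.04 in m125, whereas the amino acid genes lay between −0.48 and −1.09.

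Without m35, 2 of the 33 genes were called lower (*Got1* and *Got2*) and 0 higher, against 17.8% and 4.24% of all genes in that fit. The median log2 fold change of the cycle genes was then −0.38 and that of the PDH subunits −0.25, against −0.65 and −0.61 with all mice. *Idh3a*, *Idh3b* and *Fh1* had −0.39, −0.46 and −0.37 without m35, *Cs* had −0.29 and *Dld* −0.05. At the level of single transcripts, 81 transcripts of the 33 genes were tested. Of these, 0 had a limma adjusted p under 0.05, against 313 of all 23137 transcripts tested. By unadjusted p under 0.05, 7 of the 81 transcripts were lower and 1 higher, against 14.8% and 6.94% of all 23137 transcripts tested.

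Of 39 related genes, chosen for their place around the cycle, 38 were tested, with 1 called higher and 0 called lower. Among all genes tested, 2.34% were called higher and 2.91% lower. The called gene was *Gpt2*, the mitochondrial alanine aminotransferase that links pyruvate with glutamate. It had 34.3, 31.9, 21.2 and 23.1 FPKM at PN21 and 43.0, 50.8, 67.2 and 68.0 FPKM at PN98 in the order m35, m106, m114 and m125 (log2 fold change 1.03, SE 0.23, limma adjusted p = 0.0423). Its ages did not overlap, as in 16.1% of all genes tested (either direction), and the direction was opposite to *Got1* and *Got2*. The values of the related genes are from the main fit. They were not examined with other scalings or with a mouse left out, so how far the *Gpt2* call depends on these is not known. The median log2 fold change of the 38 genes was −0.26, against −0.21 over all genes. Of the 38, 29 lay below 0, against 67.0% of all genes.

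In succinate dehydrogenase, which oxidises succinate as part of the respiratory chain, *Sdhb*, *Sdhd* and *Sdhc* had log2 fold changes of −0.89, −0.85 and −0.32 (limma adjusted p from 0.153 to 0.386). *Sdha*, its flavoprotein, named here after its values were seen, had a log2 fold change of 0.01 and ran from 438 FPKM in m35 to 1355 FPKM in m125. Among genes that make or use pyruvate, *Pck1* (cytosolic phosphoenolpyruvate carboxykinase, used for glyceroneogenesis in adipocytes) had a log2 fold change of 1.75, *Slc16a1* (a monocarboxylate transporter) one of −0.70 and *Ldhb* (lactate dehydrogenase B) one of −1.03. Their limma adjusted p-values were 0.0740, 0.101 and 0.128, none past the threshold. *Pck1* had 987, 2428, 1355 and 2651 FPKM in m35, m106, m114 and m125, all above the PN21 range of 226 to 874 FPKM.

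Among 12 regulators of mitochondrial genes, 11 had estimates below 0, against 67.0% of all genes, and 0 were called. This count is from the main fit and was not examined with the other scalings. Those scalings moved the median of all genes from −0.21 to −0.03 and 0.02, and several of the 11 estimates lay near −0.21. *Ppargc1b*, a coactivator of the estrogen-related receptors, had 8.58, 8.95, 10.1 and 7.94 FPKM at PN21 and 1.52, 4.67, 2.37 and 6.68 FPKM at PN98 (log2 fold change −1.17, SE 0.34, limma adjusted p = 0.0851). Its PN98 mice lay below all PN21 mice and in the order of the cycle genes. *Nrf1* and *Ppargc1a* had log2 fold changes of −0.45 and −0.51. Of 5 genes of lipoylation, which attaches the lipoyl group of *Dlat* and *Dlst*, *Lipt2*, *Lias* and *Gcsh* had log2 fold changes of −0.29, 0.16 and −0.20. Of 5 genes of cytosolic citrate and malate metabolism and transport, *Slc25a11*, *Acly* and *Slc25a1* had log2 fold changes of −0.43, −1.06 and 0.59, with limma adjusted p-values from 0.193 to 0.545. *Acly*, ATP-citrate lyase, ran from 53.3 FPKM in m35 to 912 FPKM in m125 and from 316 to 1287 FPKM at PN21.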

How the data were processed

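Poly(A)+ RNA of 8 inguinal depots was sequenced in paired-end reads. Per the submitters' processing notes, CASAVA 1.8.2, FastQC, STAR 2.3.0 and Cufflinks 2.1.1 were used with mm10. The authors deposited 1 FPKM value per transcript and mouse, and the other columns of their tables, which hold their own fold changes, p-values and summaries over libraries, were not used as results. In the deposited text, FPKM values of 1 or more had lost their decimal marks. They were restored by searching the readings whose SD, average and score match those listed beside them, which cover 10 libraries, 2 of them not used here. Of 91969 transcripts 40506 could be read in more than 1 way, 40448 had a single reading and 58 were left out. In 5027 transcripts also listed with intact decimals, 5027 were equal in all 8 mice. No transcript of the 33 genes was left out.

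Transcripts were assigned to genes with GENCODE vM21 (88679 of 90607 matched by ID) and FPKM summed per gene. Genes averaging at least 1 FPKM were compared on log2(FPKM + 1) with limma 3.58.1 in R 4.3.3, with no covariate, since FPKM are not counts. Transcripts were compared on log2(FPKM) where above 0 in all mice with a mean above 2 at an age. Scripts were tested on simulated data. Of the related genes, those called or else the 3 with the lowest p of each list are named. The genes, lists and tests were chosen with earlier results of these data known. Alternatives were other scalings, pseudocounts, filters, limma settings and leaving out each mouse. Other software was Python 3.11.15.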

Additional observations from a re-analysis of the deposited data

Results flagged for a closer look

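Among the 66 sets of 4 mice examined (33 genes at 2 ages), 1 held a sample whose gap to the next, over the range of its group, exceeded Dixon's critical value for 4 samples. *Idh3b*, a subunit of isocitrate dehydrogenase 3, was low in PN21 mouse m138, with 423 FPKM against 576 to 602 FPKM in the other PN21 mice, a gap of 0.856 of the range. Chance flags about 1 in 20 such groups.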

How the results depend on the processing

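The files give FPKM without counts, so depth cannot be weighed and 4 mice at an age limit the precision. Calls were few and moved with the settings. Scaled to nuclear genes, 0 of the 33 genes were called lower, against 259 of 16101 genes tested. With limma's array weights 4 were called lower (*Suclg1*, *Mdh2*, *Got1* and *Got2*) and 1 higher (*Pdpr*), against 21.7% and 7.13% of all genes. Leaving out a mouse gave 0 to 2 called lower, 2 without m35 (against 17.8% of all genes). Without any other mouse it was 0, against 110 of 16148 to 258 of 16209 genes tested. The remaining settings gave 1 lower and 0 higher, where 267 of 11063 to 567 of 11848 genes tested were called lower. The medians of each role moved by less than the spread between mice. Of the 33 genes, 23 kept their direction under every alternative and 10 did not. The cause of these turns was not tested, and none of the values that turned was past the threshold. Scaled to nuclear genes, the log2 fold change was 0.12 for *Idh3g*, 0.10 for *Ogdh*, 0.26 for *Suclg2*, 0.027 for *Idh1*, 0.071 for *Mdh1*, 0.028 for *Pdha1* and 0.11 for *Pdk1*. With median of ratios scaling it was 0.060 for *Idh3g*, 0.034 for *Ogdh*, 0.20 for *Suclg2*, 0.0084 for *Mdh1* and 0.053 for *Pdk1*, and with array weights 0.023 for *Idh3g* and 0.023 for *Ogdh*. The transcript with the lowest p gave 1.91 for *Ogdh* and −0.31 for *Mpc1*, and the most abundant transcript −0.0064 for *Glud1*. With a mouse left out, the log2 fold change ran from −0.38 to 0.11 for *Idh3g*, −0.43 to 0.10 for *Ogdh*, −0.17 to 0.11 for *Suclg2*, −0.38 to 0.00042 for *Mdh1*, −0.58 to 0.16 for *Pdha1*, −0.37 to 0.064 for *Pdk1*, −0.13 to 0.50 for *Pdk2*, −0.30 to 0.55 for *Mpc1* and −0.0088 to 0.17 for *Glud1*. In alternatives chosen after seeing the data, m35 was the lowest of 8 mice in 21 genes scaled to nuclear genes (8.96% of all genes) and in 24 with median of ratios scaling (13.5%), and the order of the PN98 mice was shared by 24 genes in both (10.7% and 15.4% of all genes). No paired analysis was possible because the replicate numbers were given in accession order and the mice of both ages are different animals.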

Other observations

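Several of the genes were measured through transcripts that GENCODE vM21 does not annotate as protein-coding, and these did not always move like the gene. In *Mdh2* a transcript annotated for nonsense-mediated decay held 67.1% of the gene's mean FPKM, with a log2 fold change of −0.77 (SE 0.29, limma adjusted p = 0.194 over all transcripts). In *Idh3b* the protein-coding transcript held 56.5%, with a log2 fold change of −0.52, and a transcript annotated for nonsense-mediated decay had −1.14 (adjusted p = 0.217). In *Pdha1* a retained-intron transcript had a log2 fold change of −1.73 (SE 0.64, limma adjusted p = 0.192), while the protein-coding transcript, with 98.6% of the gene's FPKM, had −0.25. In *Idh2* a retained-intron transcript of 485 bases held 41.0% of the gene's FPKM, and in *Dlat* a processed transcript of 770 bases held 45.1%. None of these transcripts passed the threshold, and the shares are Cufflinks estimates from overlapping transcripts.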
